A study of Mus musculus with 9 samples.

Results

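Genes of the proteasome were followed in bulk RNA-seq of mouse embryonic stem cells. The members are the rows whose symbol, or one symbol of a row merged from several, begins with Psma, Psmb, Psmc, Psmd or Psme followed by a number. The rule found 44 genes among 30232 gene rows, and 43 of them were among the 12645 rows that passed the filter on low counts. The remaining one, Psmb11, the thymus-restricted catalytic subunit, held 2, 0, 2 and 0 counts in the wild-type libraries and 0, 0, 0, 0 and 1 in the knockout libraries. Psmb5, Psmd7, Psme4 and Psme2b share their rows with other transcripts (Mir686, AK158379, AK163075, and 9930111J21Rik1 with 9930111J21Rik2, in that order), so their values may include those transcripts.

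The series holds 4 wild-type libraries and 5 libraries with a knockout of Gzf1, a zinc finger gene, made by MARS-seq2.0, which counts polyadenylated RNA. Run2 holds the RGM line, with replicates 1 and 2 of each genotype. Run1 holds the V6.5 line, with wild-type replicate 3 and the knockouts 3, 4 and 5, and the Cas9-GFP line, with wild-type replicate 4. All cells were grown with serum and LIF on irradiated embryonic fibroblasts, which were depleted before harvest. The sources used here do not give the knocked-out allele or the number of clones. Every RGM library belongs to run2 and every other library to run1, so cell line and run cannot be told apart. A comparison of RGM with the run1 lines is a comparison of both at once.

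The proteasome degrades proteins tagged with ubiquitin. Its barrel-shaped core particle (20S) has outer rings of alpha subunits, which gate the entrance, and inner rings of beta subunits, some of which cut peptide bonds. The regulatory particle (19S) sits on the end of the barrel: a base with a ring of ATPases unfolds substrates and threads them into the core, and a lid removes their ubiquitin. Other activators open the core without ubiquitin, and interferon replaces the catalytic beta subunits by inducible counterparts. Embryonic stem cells are known for high proteasome activity, and loss of most standard subunits is lethal to dividing cells.

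Library totals ran from 2568489 to 3704162 counts in RGM and from 4872127 to 7072697 in the run1 lines. Levels are given as CPM, counts scaled to a common library size with TMM factors. A floor of 3 counts corresponded to 0.411 to 1.18 CPM and covers counting error only. Gzf1 ranged from 8.11 to 30 CPM in the wild type and from 1.66 to 14.2 CPM in the knockouts, so the ranges overlapped. The log2 fold change was -1.45 (SE 0.42, edgeR unadjusted p = 0.0048, Benjamini-Hochberg adjusted p = 0.9998). Within RGM the knockouts (5.45 and 14.2 CPM) lay below the wild type (28.6 and 30 CPM). Within run1 the knockouts (1.66, 9.40 and 5.25 CPM) overlapped the wild type (8.11 and 18.7 CPM). A 3' tag need not report the knockout, since the altered part of the gene is not given. All 10 pluripotency markers passed the filter, with a summed level of 5831 to 6661 CPM in RGM and 5775 to 7459 CPM in the run1 lines. Of these markers 2 were lower and 2 higher in RGM, beside 23.1% and 22.2% of all genes. Lin28a was higher (log2 difference 1.55, edgeR adjusted p = 1e-05). Tdgf1 (-1.435, adjusted p = 1.1e-05) and Klf4 (-1.23, adjusted p = 2.8e-05) were lower. Fibroblast markers were higher in RGM for 17 of 19 tested genes and lower for 1. Their summed level was 2042 to 3725 CPM in RGM and 1080 to 1731 CPM in the run1 lines, with none at 0 in any library among the tested 19, and their part in the results on cell line was not tested. Of 10 primitive endoderm markers 6 passed the filter. Of these, 2 were higher in RGM (Dab2 and Pdgfra) and 0 lower, beside 22.2% and 23.1% of all genes. Among the untested markers, mean levels were lower in RGM for Gata6 (1.73 against 4.31 CPM), Sox7 (0.492 against 3.77) and Sox17 (0.524 against 2.82). Foxa2 went the other way (1.21 against 0.112). Fewer cells of a type and less RNA per cell cannot be told apart in bulk samples.

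No proteasome gene passed the test between Gzf1-knockout and wild-type cells. Of 43 members, 0 passed edgeR's quasi-likelihood test with run as a term (adjusted p under 0.05), beside 0.0316% of all genes tested (4 genes), and 0 had an unadjusted p under 0.05, beside 2.32% of all genes. The median log2 fold change, knockout minus wild type, was -0.06 over the members and 0.01 over all genes. Of the members 31 had a negative and 12 a positive value, beside 5989 and 6656 of all 12645 genes. Without wild-type replicate 4, the Cas9-GFP library, the members' median was 0.002. Without any other single library it was -0.072 to -0.052. The 95% intervals of the alpha and beta rings, base and lid lay between -0.52 (Psmb5) and 0.28 (Psmd3), with Psma8, a testis counterpart, reaching 0.69, and those of the 20 regulatory particle genes, assembly chaperones included, between -0.51 and 0.28. DESeq2 and limma voom also called 0 members.

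**Figure D1:**
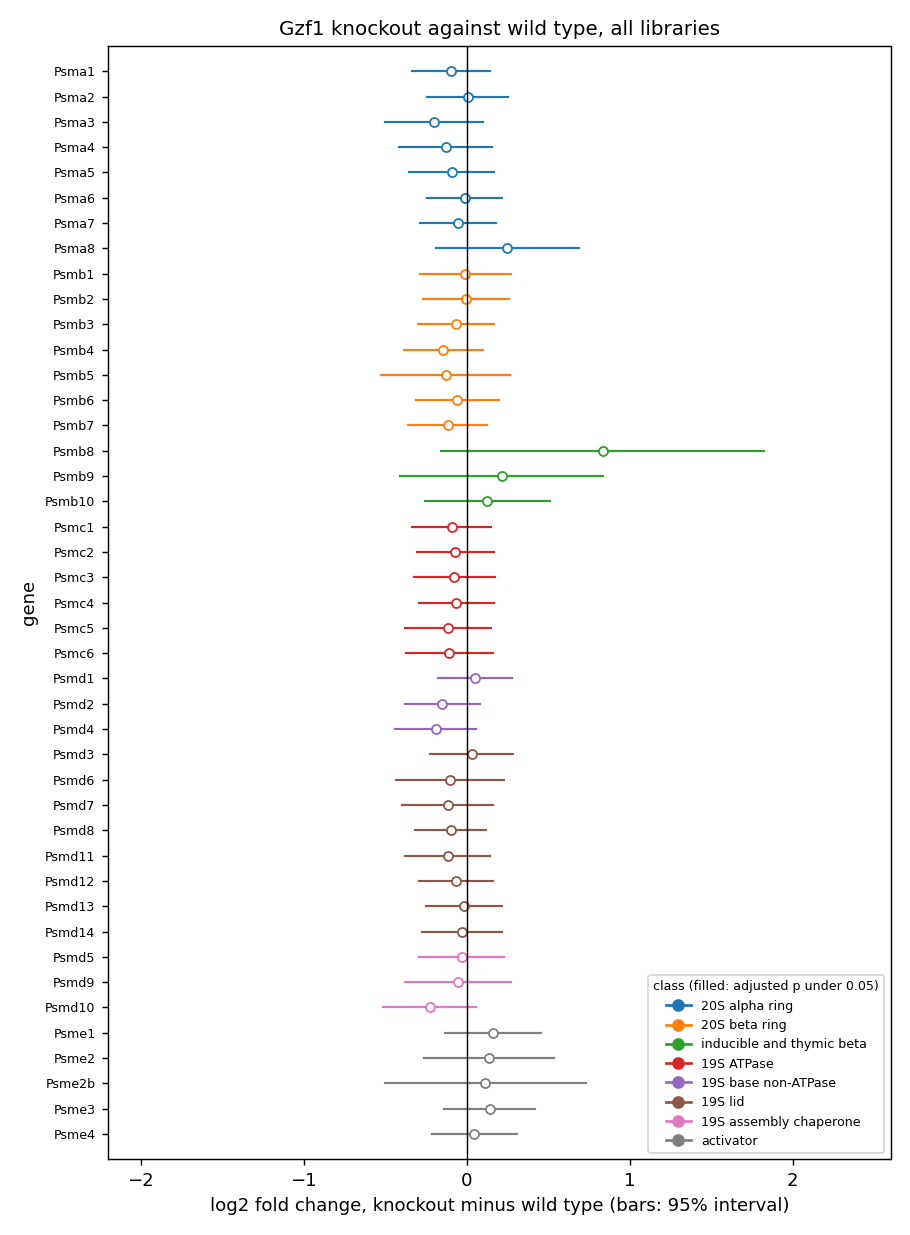
Log2 fold change, knockout minus wild type, of each tested member (x axis) over all 9 libraries, ordered by subunit class (y axis), with 95% intervals as bars. Every interval includes 0, and Psmb8 has the widest, from -0.16 to 1.83.

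One member, Psmd2, had every knockout library below every wild-type library, a pattern found in 0.245% of all tested genes. Psmd2 encodes a scaffold of the base that docks ubiquitin-carrying shuttle proteins. Its level was 213, 198.9, 207.4 and 212.2 CPM in wild-type replicates 1 to 4 and 189.3, 194.2, 173.1, 183.2 and 196.7 CPM in knockout replicates 1 to 5. The groups did not overlap, but the log2 fold change was -0.15 (SE 0.11) and the adjusted p 0.9998. No member had every knockout library above every wild-type library, beside 0.198% of all genes.

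Within RGM, 0 members passed the test (0% of all genes), and within the run1 lines 0 passed (0.0158% of all genes). Both knockout libraries of RGM were below both wild-type libraries for 12 members (16.6% of all genes) and above them for 2 (18% of all genes). In the run1 lines all 3 knockout libraries were below both wild-type libraries for 7 members (7.1% of all genes) and above them for 2 (6.42% of all genes). No knockout effect differed between the runs in the test of that difference (0 of 43, beside 0% of all genes, edgeR adjusted p under 0.05). The smallest unadjusted p of that test was 0.034, for Psme2b.

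Between the lines, which also means between the runs, many members differed. Of 43 members, 25 differed between RGM and the run1 lines with genotype as a term (edgeR adjusted p under 0.05), beside 45.3% of all genes tested. Of these, 22 were lower in RGM, beside 23.1% of all genes, and 3 were higher, beside 22.2%. The median log2 difference, RGM minus run1 lines, was -0.35 over the members and -0.02 over all genes. Every RGM library was below every run1 library for 22 members (19.2% of all genes) and above it for 2 (19.4% of all genes). The members just inside the threshold were Psma5 and Psmc3, both at an adjusted p of 0.031, and the one just outside it was Psmd14, at 0.058.

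**Figure D2:**
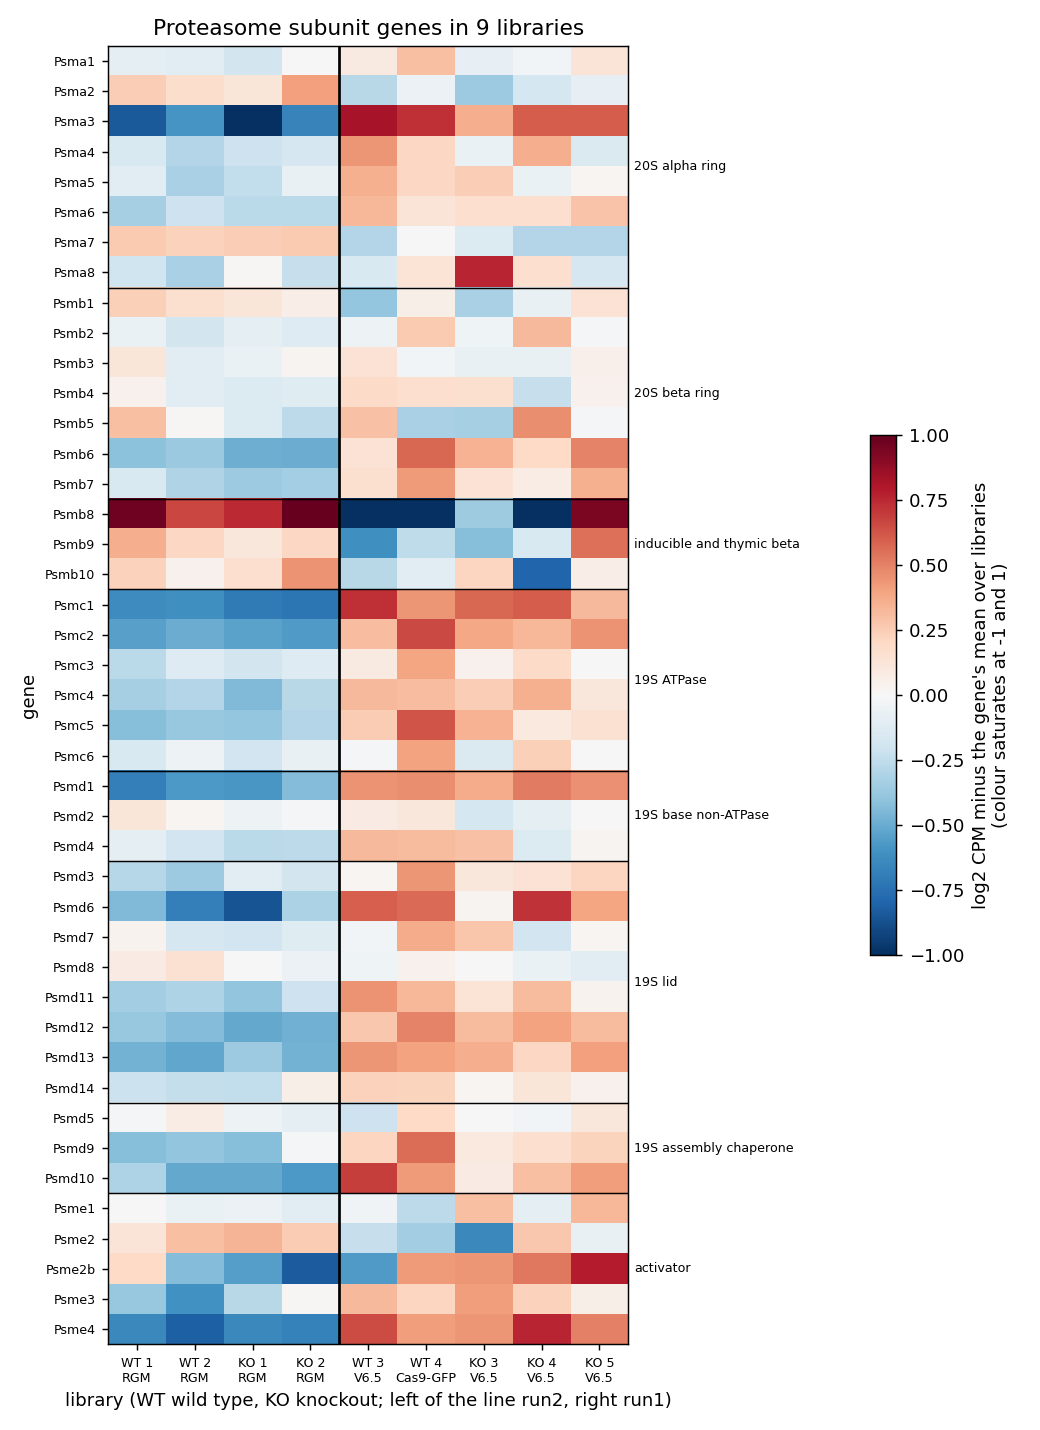
Level of each tested member (rows, by class) in each of the 9 libraries (columns), as log2 CPM minus the member's mean over the libraries (red above, blue below). RGM libraries stand left of the line and run1 libraries right of it, and most rows of the regulatory particle are low on the left.

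The calls lay mostly in the regulatory particle. Of its 20 genes 14 were lower in RGM (70%) and 0 higher, beside 23.1% and 22.2% of all genes. Their median log2 difference was -0.58. Of the 18 tested core genes 6 were lower (33.3%) and 3 higher (16.7%), shares near those of all genes, with a median of -0.18. The summed level of the regulatory particle genes was 4308 to 4513 CPM in RGM and 6173 to 7146 CPM in the run1 lines. That of the core genes was 4837 to 5208 CPM in RGM and 5080 to 5815 CPM in the run1 lines, so the core sums overlapped while the regulatory particle sums did not. Over all members the share of the library's counts was 0.953% to 1.012% in RGM and 1.192% to 1.302% in the run1 lines. The naming rule counts the 3 assembly chaperones among the 20 regulatory particle genes. It leaves out Shfm1, a lid subunit that was higher in RGM (log2 difference 1.23, edgeR adjusted p = 4.8e-06). Whether the particles differ from each other was not tested.

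**Figure D3:**
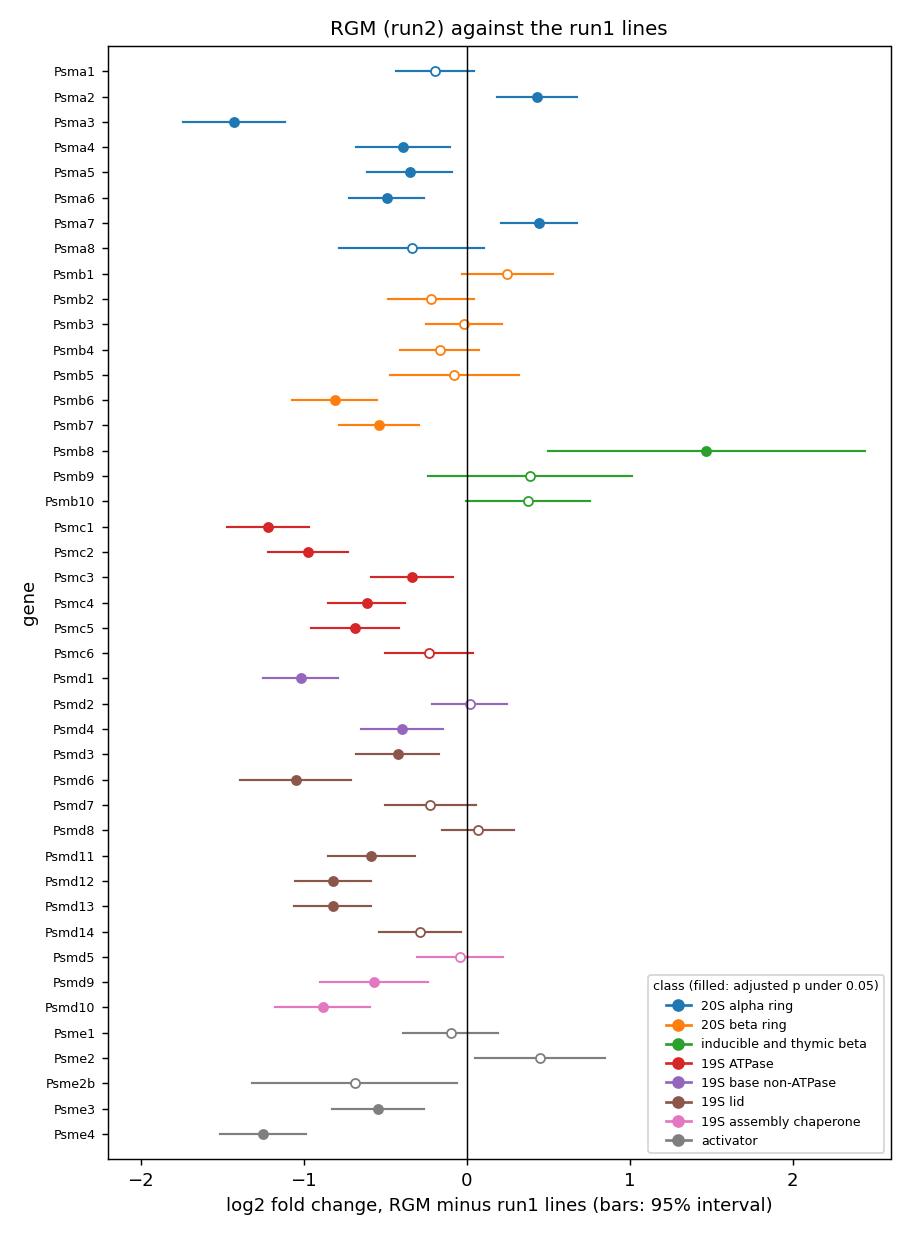
Log2 difference, RGM minus run1 lines, of each tested member (x axis), ordered by subunit class (y axis), with 95% intervals as bars and filled points for adjusted p under 0.05. Points of the ATPases lie at or left of -0.23, while Psma2, Psma7 and Psmb8 are the filled points right of 0.

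The alpha ring was split. Of 8 genes 4 were lower in RGM (Psma3, Psma4, Psma5 and Psma6) and 2 higher (Psma2 and Psma7). Over all genes 23.1% were lower and 22.2% higher. Psma3 encodes an alpha subunit at the gate of the barrel and lies at chr12:70974621-70996347 on the plus strand of GRCm38, where an annotated antisense gene, 3110056K07Rik, overlaps it. It was at 27.2, 32.4, 24.0 and 30.8 CPM in the RGM libraries (wild type 1 and 2, knockout 1 and 2) and at 86.4, 81.1, 62.8, 74.1 and 74.3 CPM in the run1 libraries (wild type 3 and 4, knockout 3, 4 and 5). All RGM libraries were below all run1 libraries, with a log2 difference of -1.43 (SE 0.15, edgeR adjusted p = 6.3e-06). Psma6, another structural subunit of that ring, was at 230.5, 251.4, 240.9 and 241.9 CPM in RGM and at 366.5, 317.8, 327.3, 326 and 354.7 CPM in the run1 lines, a log2 difference of -0.49 (SE 0.11, adjusted p = 0.0021). Those ranges did not overlap either.

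The alpha subunits higher in RGM, Psma2 and Psma7, are also structural. Psma7 (chr2:180036374-180042433, minus strand) was at 625.4, 610.6, 619.2 and 625.2 CPM in RGM and at 426.1, 523.6, 473.3, 425.8 and 426.5 CPM in the run1 lines. Psma2 (chr13:14613240-14674236, plus strand) was at 555, 529.3, 510.6 and 622.8 CPM in RGM and at 387.4, 449.7, 363.2, 414.1 and 442.9 CPM in the run1 lines. For each of them every RGM library was above every run1 library. The log2 differences were 0.44 (SE 0.11, edgeR adjusted p = 0.0044) for Psma7 and 0.43 (SE 0.12, adjusted p = 0.0075) for Psma2. Psma8, the counterpart of Psma7 known from the testis, had the largest knockout value of the ring and had levels of 20.2, 18.6, 20.9 and 25.4 CPM across wild-type libraries and of 23.4, 19.7, 39.3, 26.1 and 20.7 CPM across knockout libraries. Those ranges overlapped, with a fold change on the log2 scale of 0.25 (SE 0.21, adjusted p = 0.9998), which was 0.08 without knockout replicate 3 and 0.17 without wild-type replicate 3.

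Because alpha-ring genes went in opposite directions, their promoters are shown around the CCAAT box, the site read by the factor NF-Y. RefSeq promoters on GRCm38.p6, from 250 bases before the start, matched 37 of the 44 members, 7 of them in the alpha ring. CCAAT, searched on both strands, was found in 5 of those 7 alpha-ring promoters, in 14 of the 37 members (37.8%) and in 41.06% of all genes with a promoter. The box is in capitals, as ATTGG where it lies on the other strand. Psma3 and Psma6 were lower in RGM, and Psma2 and Psma7 higher.
Psma3, chr12:70974459-70974513, + strand: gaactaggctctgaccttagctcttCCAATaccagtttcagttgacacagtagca
Psma6, chr12:55384061-55384115, + strand: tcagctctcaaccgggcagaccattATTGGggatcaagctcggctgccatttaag
Psma2, chr13:14613163-14613217, + strand: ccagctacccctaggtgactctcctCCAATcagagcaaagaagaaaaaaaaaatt
Psma7, chr2:180042631-180042685, - strand: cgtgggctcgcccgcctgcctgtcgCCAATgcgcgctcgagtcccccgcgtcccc
The box is in both genes higher in RGM and in Psma3 and Psma6, but the windows of Psma4 and Psma5, also lower, hold none, and that of Psma1, which was not called, does. A match describes the letters and does not show binding.

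In the beta ring 2 of 7 standard genes were lower in RGM (28.6%) and 0 higher, a share near the 23.1% of all genes called lower. Both encode catalytic subunits: Psmb6 cuts after acidic residues and Psmb7 after basic residues. Psmb6 was at 393.3, 402.2, 372.2 and 369 CPM in RGM and at 576.7, 778.1, 664.5, 599.8 and 735.3 CPM in the run1 lines. Psmb7 was at 299, 270.4, 258.2 and 262.1 CPM in RGM and at 371.7, 446.5, 366.8, 349.2 and 425.8 CPM in the run1 lines. Neither overlapped between the lines, and the log2 differences were -0.81 (SE 0.12, edgeR adjusted p = 0.00013) and -0.54 (SE 0.12, adjusted p = 0.0018). Both genes, like Psmb5, have annotated pseudogenes, between which the counting could split reads.

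The third catalytic subunit, Psmb5, which cuts after hydrophobic residues, was at 112.7, 91.96, 83.28 and 76.17 CPM in RGM and at 111.7, 73.13, 72.72, 125.9 and 90.47 CPM in the run1 lines. These ranges overlapped, with a log2 difference of -0.08 (SE 0.19, edgeR adjusted p = 0.76). Psmb4, a structural subunit with the largest knockout value of the ring, had levels of 576.3, 519, 638.1 and 628.8 CPM across wild-type libraries and of 509.6, 513.5, 624.2, 478.2 and 575.8 CPM across knockout libraries. The genotypes overlapped, with a fold change on the log2 scale of -0.14 (SE 0.11, adjusted p = 0.9998).

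The antioxidant response element is the sequence through which Nfe2l1 and Nfe2l2 are known to drive proteasome genes. Its core, TGACNNNGC on either strand, was found in 6 of 37 members (16.2%) and in 13.99% of all genes with a promoter. Psmb6, Psmd9, Psmd12 and Psme4, all lower in RGM, hold it, as do Psmb5 and Psmc6, which did not pass the test. With a promoter, these are 4 of 19 members lower in RGM and 2 of 14 not called, beside 0 of 3 higher. Stretches of 3 of them are shown (core in capitals).
Psmb6, chr11:70525323-70525356, + strand: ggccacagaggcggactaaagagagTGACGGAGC
Psmd12, chr11:107479278-107479314, + strand: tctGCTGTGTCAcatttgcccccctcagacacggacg
Psmb5, chr14:54618023-54618067, - strand: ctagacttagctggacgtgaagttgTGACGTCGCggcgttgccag
The share among the members was near that of all genes.

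Among the inducible catalytic subunits 1 of 3 tested genes was higher in RGM, too few to set against the 22.2% of all genes called higher. Psmb8, the inducible counterpart of Psmb5, was at 4.85, 3.95, 4.16 and 5.92 CPM in RGM and at 0.824, 0.942, 1.94, 1.04 and 4.75 CPM in the run1 lines. Knockout replicate 5 was the one run1 library within the RGM range, and the raw counts were 5 to 29 per library. The log2 difference was 1.47 (SE 0.46, edgeR adjusted p = 0.017), and it did not pass without wild-type replicate 1 (0.061) or wild-type replicate 3 (0.058). Psmb9, the counterpart of Psmb6, was at 8.36, 7.5, 7.05 and 7.5 CPM in RGM and 4.26, 5.47, 4.84, 5.85 and 9.51 CPM in the run1 lines (log2 difference 0.39, adjusted p = 0.3). Psmb10, the counterpart of Psmb7, was at 109.4, 96.3, 105.1 and 127.5 CPM in RGM and 76.9, 87.1, 108.7, 54.1 and 98.0 CPM in the run1 lines (log2 difference 0.38, adjusted p = 0.099). Both overlapped between the lines.

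Psmb8 also had the largest knockout value of all members, with a fold change on the log2 scale of 0.83 (SE 0.46, adjusted p = 0.9998). It was 0.42 without knockout replicate 5 and 0.29 with limma voom, and 0.40 with the replicate block in place of run. Within the run1 lines its knockout libraries, at 1.94, 1.04 and 4.75 CPM, were above the wild-type libraries, at 0.824 and 0.942 CPM. The log2 fold change there was 1.55 (SE 0.65, unadjusted p = 0.033, edgeR adjusted p = 0.9995), the only member with an unadjusted p under 0.05 in that comparison.

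**Figure D4:**
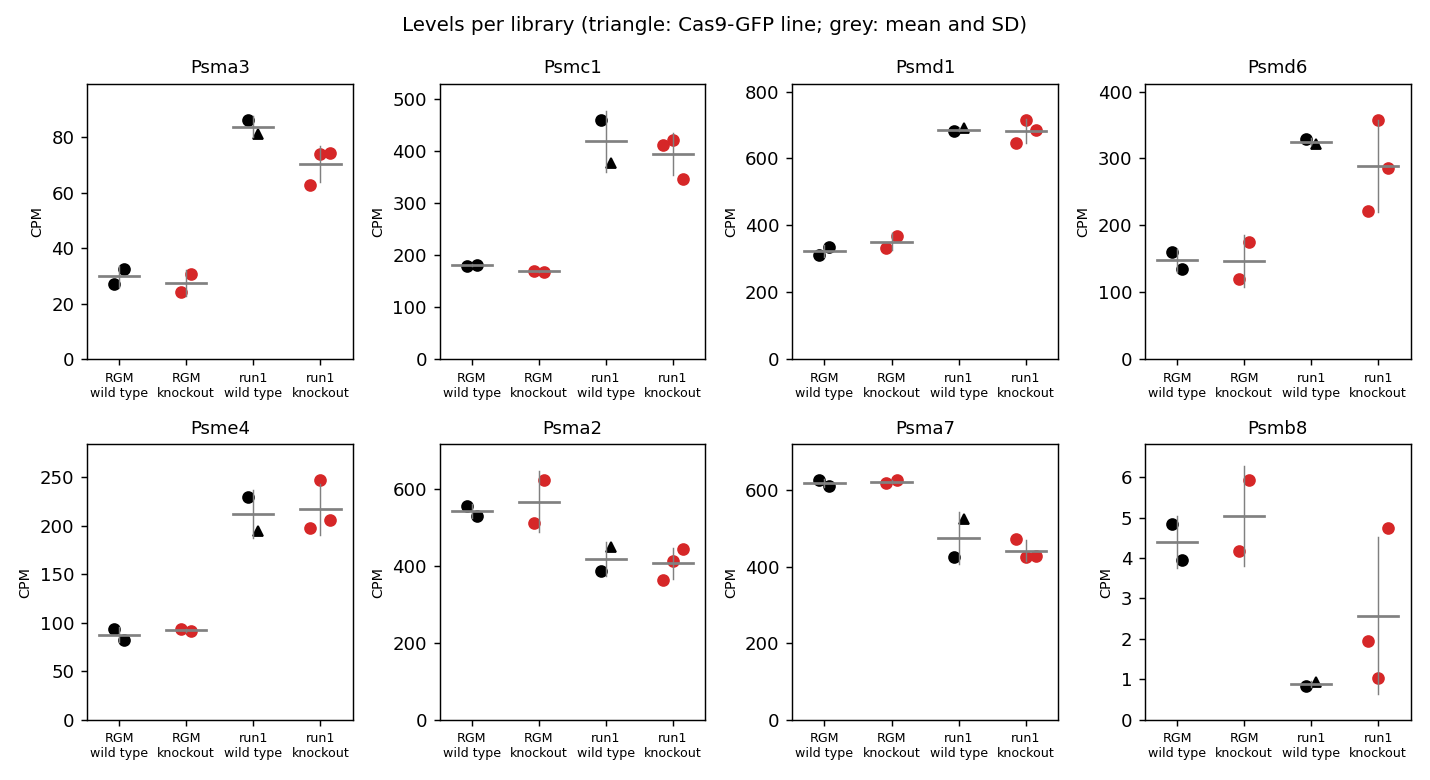
Level in CPM (y axes, from 0) of 8 members in each of the 9 libraries, wild type in black and knockout in red, with grey bars for mean and SD and a triangle for the Cas9-GFP line. Psma3, Psmc1, Psmd1, Psmd6 and Psme4 are lower, and Psma2 and Psma7 higher, in every RGM library than in any run1 library, while Psmb8 overlaps.

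The ATPase ring had 5 of 6 genes lower in RGM and 0 higher, beside 23.1% and 22.2% of all genes. Its median log2 difference was -0.65. Psmc1 (chr12:100110154-100123405, plus strand), the ATPase known for opening the gate of the core, was at 179, 181.5, 169.4 and 167.7 CPM in RGM and at 460.2, 376.4, 411.5, 421.4 and 346.8 CPM in the run1 lines. Psmc2 was at 249.1, 256.9, 250.8 and 245.5 CPM in RGM and at 449.4, 573.7, 475.1, 457.2 and 495 CPM in the run1 lines. For both every RGM library was below every run1 library. The log2 differences were -1.22 (SE 0.12, edgeR adjusted p = 3.8e-06) and -0.97 (SE 0.11, adjusted p = 1.7e-05).

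Psmc4 was at 216.7, 222.2, 200.2 and 224.6 CPM in RGM and at 341.1, 337.8, 322.7, 349.2 and 294.7 CPM in the run1 lines. Psmc5 was at 233.2, 241.9, 240.6 and 256.1 CPM in RGM and at 375, 486.8, 399.4, 335.2 and 349.6 CPM in the run1 lines. These ATPases did not overlap between the lines either, with log2 differences of -0.61 (SE 0.11, edgeR adjusted p = 0.00047) and -0.69 (SE 0.13, adjusted p = 0.00058). The fifth, Psmc3, had a log2 difference of -0.33 (adjusted p = 0.031), and Psmc6 one of -0.23 (adjusted p = 0.15). The summed level of the ring was 1370 to 1450 CPM in RGM and 2064 to 2538 CPM in the run1 lines. Psmc5 had the largest knockout value of the ring, -0.11 (SE 0.12), which was 0.01 without wild-type replicate 4.

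In the rest of the base 2 of 3 genes were lower in RGM, too few to set against the 23.1% of all genes called lower. Psmd1, a large scaffold (chr1:86064387-86139151, plus strand, with Htr2b annotated on the other strand), was at 309.7, 335.5, 333.5 and 369.4 CPM in RGM and at 682.2, 689.7, 645, 716.3 and 685.4 CPM in the run1 lines. The lines did not overlap, with a log2 difference of -1.02 (SE 0.11, edgeR adjusted p = 8e-06). Psmd4, a receptor for ubiquitin chains, was at 294.6, 275.9, 261.7 and 264 CPM in RGM and at 395.8, 393.9, 386.6, 288 and 321.3 CPM in the run1 lines. Knockout replicate 4 of run1 was below wild-type replicate 1 of RGM, so the ranges overlapped, and the log2 difference was -0.40 (SE 0.12, adjusted p = 0.013). Psmd4 also had the largest knockout value of this class, -0.19 (SE 0.12). The other scaffold, Psmd2, had a log2 difference of 0.02 (SE 0.11, adjusted p = 0.9) between the lines.

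The lid had 5 of 8 genes lower in RGM and 0 higher, beside 23.1% and 22.2% of all genes. Its median log2 difference was -0.50. Psmd12 was at 230.5, 222.6, 210.1 and 214.7 CPM in RGM and at 361.7, 423, 374.5, 396.2 and 373.9 CPM in the run1 lines. Psmd13 was at 161.5, 156.3, 173.6 and 161 CPM in RGM and at 303.5, 294.8, 288, 258.5 and 296.3 CPM in the run1 lines. Both encode structural lid subunits and neither overlapped between the lines, with log2 differences of -0.82 (edgeR adjusted p = 4.5e-05) and -0.82 (adjusted p = 5.4e-05), each with an SE of 0.11.

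Psmd6, also structural, was at 159.9, 135, 119.2 and 174.4 CPM in RGM and at 328.7, 321.7, 220.7, 358.2 and 286 CPM in the run1 lines. Psmd11, which reaches from the lid to the core, was at 88.4, 90.8, 85.5 and 97.5 CPM in RGM and at 154.1, 141.9, 123.7, 140.3 and 115.2 CPM in the run1 lines. Every RGM library was below every run1 library for both. The log2 differences were -1.05 (SE 0.16, edgeR adjusted p = 0.00014) and -0.58 (SE 0.12, adjusted p = 0.0017). Psmd3 was the fifth, with a log2 difference of -0.42 (adjusted p = 0.01).

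The enzyme of the lid did not pass the test. Psmd14, which removes ubiquitin chains, had a log2 difference of -0.29 (SE 0.12, edgeR adjusted p = 0.058), and its inactive partner Psmd7 one of -0.22 (SE 0.13, adjusted p = 0.18). Psmd7 had the largest knockout value of the lid with levels of 369, 320.5, 352.5 and 465.2 CPM across wild-type libraries and of 315.2, 330.3, 436.9, 314.7 and 364.8 CPM across knockout libraries. The genotypes overlapped, with a log2 fold change of -0.12 (SE 0.13), which was -0.02 without wild-type replicate 4. Psmd8 had a log2 difference of 0.07 between the lines (adjusted p = 0.6).

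Of the 3 chaperones that help assemble the ATPase ring, 2 were lower in RGM, too few to set against the 23.1% of all genes. Psmd10, also known as gankyrin, was at 55.5, 48.2, 48.4 and 46.2 CPM in RGM and at 110.9, 92.4, 72.9, 84.6 and 91.8 CPM in the run1 lines. Psmd9 was at 35.6, 36.3, 35.6 and 47.0 CPM in RGM and at 55.4, 70.1, 51.2, 53.5 and 55.7 CPM in the run1 lines. Neither overlapped, and the log2 differences were -0.88 (SE 0.14, edgeR adjusted p = 0.00017) and -0.57 (SE 0.16, adjusted p = 0.0082). Psmd5 had a log2 difference of -0.04 (adjusted p = 0.8). Psmd10 had the lowest knockout value of all members, -0.23 (SE 0.13, adjusted p = 0.9998).

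Of 5 activator genes 2 were lower in RGM and 0 higher, beside 23.1% and 22.2% of all genes. Psme4, a nuclear activator of the core (chr11:30771726-30880361, plus strand), was at 93.3, 82.5, 93.2 and 91.2 CPM in RGM and at 229.4, 194.5, 197.8, 246.8 and 206 CPM in the run1 lines. Psme3, the nuclear member of the other activator family, was at 190.6, 162.6, 204 and 249 CPM in RGM and at 309.2, 287.6, 330.7, 290.1 and 257.7 CPM in the run1 lines. Both were lower in every RGM library than in any run1 library. The log2 differences were -1.25 (SE 0.13, edgeR adjusted p = 5e-06) and -0.55 (SE 0.13, adjusted p = 0.004).

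Psme1 and Psme2, the interferon-inducible activator subunits, and Psme2b did not pass the test over all libraries. Psme1 was at 123.2, 118, 118.5 and 114.5 CPM in RGM and 120.5, 103.1, 151.9, 115.7 and 155.1 CPM in the run1 lines (log2 difference -0.10, edgeR adjusted p = 0.58). Psme2, its partner, was at 32.6, 36.7, 37.8 and 35.5 CPM in RGM and 25.4, 23.4, 19.1, 35.9 and 28.4 CPM in the run1 lines (log2 difference 0.45, adjusted p = 0.062). Both overlapped between the lines. Psme2b, a close copy of Psme2, was at 17.8, 11.5, 10.6 and 8.68 CPM in RGM and 10.4, 20.7, 21.0, 22.4 and 26.7 CPM in the run1 lines (log2 difference -0.69, adjusted p = 0.069). Among knockout libraries alone Psme2b was lower in RGM (log2 difference -1.27, SE 0.36, adjusted p = 0.021), where Psme3 did not pass (-0.37, adjusted p = 0.13). Reads of Psme2 and Psme2b could be split between them by the counting. Psme1 had the largest knockout value of the class, 0.16 (SE 0.14, adjusted p = 0.9998).

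The difference between the lines was also read in each genotype alone. The levels compared share no library between the genotypes. Scaling and the estimate of spread came from all 9 libraries in one fit, so the 2 sets of calls are not independent. Among wild-type libraries 19 members differed (24.4% of all genes), 18 of them lower (12.3% of all genes) and 1 higher in RGM (12.1% of all genes). Among knockout libraries 17 differed (25% of all genes), 15 lower (12.4%) and 2 higher (12.6%). Of these, 14 were lower in both genotypes, and 38 of 43 members had the same sign in both. Across members, as a description, Pearson's r between the log2 differences was 0.853 and Spearman's rho 0.869 (n = 43), and over all genes 0.885 and 0.859. The counts rested on few libraries: the wild-type count was 8, 6 and 11 without wild-type replicate 1, 2 or 4, and the knockout count 6 and 7 without knockout replicate 1 or 2.

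**Figure D5:**
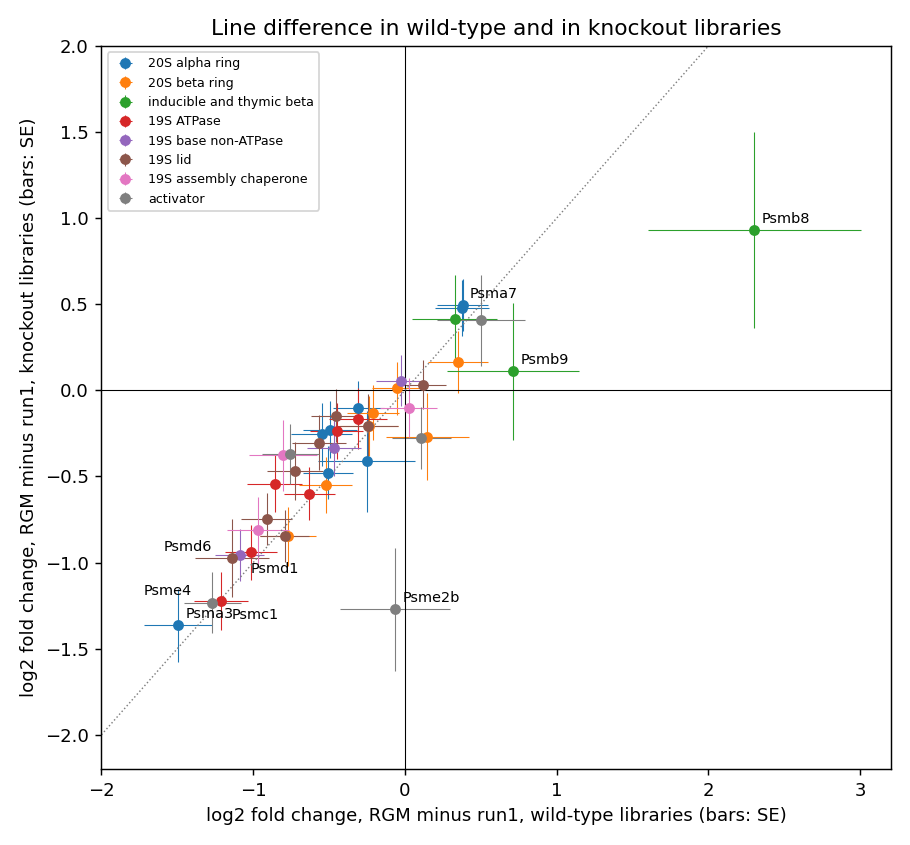
Log2 difference, RGM minus run1 lines, of each tested member in wild-type libraries (x axis) and in knockout libraries (y axis), with standard errors as bars and the line of equality dotted. Of 43 members 38 have the same sign on both axes, and Psmb8 (2.30 and 0.93) and Psme2b (-0.07 and -1.27) are among those off the line.

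Psmb8 was the member higher in RGM among wild-type libraries (log2 difference 2.30, SE 0.70, edgeR adjusted p = 0.031), while among knockout libraries it had a value of 0.93 (SE 0.57, adjusted p = 0.25). Psma2 and Psma7 were those higher among knockout libraries, with log2 differences of 0.48 (adjusted p = 0.046) and 0.49 (adjusted p = 0.031). Among wild-type libraries they had 0.37 (adjusted p = 0.14) and 0.38 (adjusted p = 0.11). The test of a difference between genotypes passed for none of the 43 members.

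Within the run1 wild type, the Cas9-GFP library and the V6.5 library could be compared without a test, with 1 library each. The median log2 difference of the members, Cas9-GFP minus V6.5, was 0.08, from -0.61 for Psmb5 to 0.96 for Psme2b. None of the 43 was past 2-fold, beside 5.8% of all genes. The median SD of log2 CPM over members was 0.06 to 0.16 in the 4 sets of one genotype and run, beside 0.13 to 0.33 over all genes. The set at 0.16, the run1 wild type, holds both the V6.5 and the Cas9-GFP library. Members and all genes were not matched for level in these comparisons.

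Members lower in RGM had a median transcript length of 1770 bases and a GC content of 48.9%, against 1352 bases and 51.2% for the other tested members. Across the members, as a description, Spearman's rho with the log2 difference between the lines was -0.21 for length and 0.32 for GC content, and over all genes with a value (82.5% of those tested) -0.08 and 0.002. The members lie on 16 chromosomes. Of the 44, 18 overlap an annotated gene on the opposite strand, and without knowledge of strand their reads cannot be told apart. An annotated gene on the same strand overlaps 9, among them Psma2, Psmd1, Psmd12 and Psmd13, and there strand would not separate the reads.

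Genes that work with the proteasome but carry other names were counted in the same fits. In the knockout comparison 0 genes of any of these lists passed. For RGM against the run1 lines the lists are read beside the 23.1% of all genes called lower and the 22.2% called higher. Of 6 tested assembly factors 1 was lower in RGM (16.7%) and 2 higher (33.3%), so 3 of 6 were called, beside 45.3% of all genes. Pomp, the maturation factor of the core, was at 345 ± 21 CPM (SD, n = 4) in RGM and 537 ± 70.4 CPM (SD, n = 5) in the run1 lines, a log2 difference of -0.63 (edgeR adjusted p = 9e-04). Psmg4, a chaperone of the alpha ring, had a log2 difference of 0.76 (adjusted p = 0.00029).

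Of 9 tested subunits and partners with other names, 4 were lower in RGM (44.4%) and 2 higher (22.2%). Shfm1, also called Sem1, is a small lid subunit, and unlike the 5 lid genes above it was higher in RGM, at 860 ± 59.9 CPM (SD, n = 4) against 362 ± 66.7 CPM (SD, n = 5), a log2 difference of 1.23 (edgeR adjusted p = 4.8e-06). AI314180, also called Ecpas, tethers the regulatory particle to the core. It was at 10.7 ± 2.57 CPM (SD, n = 4) in RGM and 48.8 ± 9.22 CPM (SD, n = 5) in the run1 lines, a log2 difference of -2.197 (adjusted p = 4.6e-06). Uchl5, a ubiquitin hydrolase of the base, had a log2 difference of -0.80 (adjusted p = 0.001).

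Of 12 genes that regulate proteasome expression, 4 were lower in RGM (33.3%) and 2 higher (16.7%), shares near those of all genes. Vcp, the segregase that draws Nfe2l1 from the endoplasmic reticulum, was at 156 ± 8.36 CPM (SD, n = 4) in RGM and 498 ± 51.0 CPM (SD, n = 5) in the run1 lines, a log2 difference of -1.68 (edgeR adjusted p = 3.1e-07). Mafg, a small partner of these factors on DNA, had -1.11 (adjusted p = 5e-04). Nfe2l1 itself, the main activator of proteasome genes, had a log2 difference of -0.30 (adjusted p = 0.062), and Nfe2l2 was higher, with 0.72 (adjusted p = 0.0037).

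Of 11 rows for ubiquitin, its activating enzymes and shuttles, 7 were lower in RGM (63.6%) and 0 higher. Ubqln4, a shuttle, had a log2 difference of -0.93 (edgeR adjusted p = 3.4e-05) and Uba1, the main activating enzyme, -0.66 (adjusted p = 0.00048). Of 13 tested genes of antigen presentation and interferon signalling, the setting in which Psmb8, Psmb9, Psme1 and Psme2 are induced, 2 were higher in RGM (B2m, 1.26, adjusted p = 3.4e-05, and Stat2, 1.38, adjusted p = 0.014) and 1 lower (H2-K1, -0.93, adjusted p = 0.0013). Both shares, 15.4% higher and 7.69% lower, were below those of all genes. Of the 13 genes 10 had a positive and 3 a negative value, beside 6192 and 6453 of all 12645 genes. The list's median log2 difference was 0.275, beside -0.02 over all genes.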

How the data were processed

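The authors deposited raw counts per gene symbol for 9 libraries. The submitters' processing notes name STAR, DESeq2 and mm10, with neither role nor version. The sources used here do not give the counter, annotation, strand or handling of molecular identifiers. Of 30324 rows, 92 spike-in rows (1 count in all) were left out. Members and gene lists were chosen with earlier results of these data known.

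Counts were filtered with filterByExpr (minimum count 10, by genotype), scaled by TMM and tested with edgeR 4.0.16 (R 4.3.3, robust quasi-likelihood test); the model held genotype and run. Contrasts within a line or genotype came from a fit of 4 groups. P-values were adjusted by Benjamini-Hochberg over all 12645 genes tested, with a threshold of 0.05, and every adjusted p of a gene comes from edgeR. Each SE was derived from the F statistic. The tests were also run on simulated counts drawn from the same kind of model. That outcome is not reported here, and no result rests on it. Alternatives were DESeq2 1.42.0 and its size factors, limma 3.58.1 voom, no filter, a replicate block, and each library left out. The labels do not name separate cultures, so p-values measure the spread between these libraries.

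Values in every library were given for members past the threshold (up to 4 per class and comparison), the largest knockout value of each class, inducible subunits and activators. Psmd2 and Psmb5 were added after their values were seen. Other lists have up to 3 genes named. Nfe2l1 was likewise added. Part of the ubiquitin list is counted but not reported by name here. Positions are from GENCODE M21 (GRCm38).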

Additional observations from a re-analysis of the deposited data

Results flagged for a closer look

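In groups of 4 or 5 libraries of one genotype, a single library stood apart by Dixon's gap test for 3 of 86 member-genotype combinations. The chance rate of about 1 in 20 assumes libraries of one kind. Each genotype pools RGM and run1 libraries, so the count cannot be set against that rate. Psma4 was at 264.8 CPM in knockout replicate 4, above the other knockout libraries. Psmb2 was at 266.3 CPM in the same library, also above the others. Psmd14 was at 224.5 CPM in knockout replicate 1, below the other knockout libraries. The knockout group holds both lines, and no cause was tested.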

How the results depend on the processing

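No member was called between knockout and wild type under any alternative, and no called value changed direction. Leaving out 1 library gave 22 to 27 members differing between RGM and the run1 lines (19 to 23 lower, 2 to 4 higher), 6 to 23 among wild-type libraries alone and 6 to 18 among knockout libraries alone. With limma voom 6 members were higher in RGM instead of 3. Psma4, Psma5, Psmc3 and Psmb8 lost their call in some of these fits. The other 21 called members kept it in all 13 alternatives. Without the filter the median log2 difference of all genes between the lines was -0.13 instead of -0.02. Replicate numbers were not used as pairs, since the labels tie them to no shared culture. The deviations of same-numbered libraries correlated at -0.065 in RGM (numbers 1 and 2) and at 0.299 and 0.335 in run1 (numbers 3 and 4). With 2 wild-type libraries per run, their deviations mirror each other, so the values within a run are not independent. Number 4 also sets Cas9-GFP against V6.5. The fit with the replicate block called 0 members. RGM libraries held fewer counts than run1 libraries, which limits members at few counts such as Psmb8.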
